A study of Mus musculus with 16 samples.

Results

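The samples described here are whole C57BL/6 mouse embryos at embryonic day 7.5 (E7.5), of wild type (WT) or lacking the miR-302 microRNAs (KO). They were chosen by stage, as the columns of the deposited E7.5 table, and make up 4 of the 16 libraries of the series: 2 KO libraries (KO1 and KO2) and 2 WT libraries (WT1 and WT2). The series asks what miR-302 does in neural crest development. Its other libraries hold cells sorted at E8.5 on Wnt1-Cre (8 libraries) or at E9.5 on Sox10 (4 libraries), the migratory crest cells that come from the border of the neural plate. At E7.5 nothing was sorted. The labels give the genotypes as KO and WT only, without the allele, the litter, the sex or the number of embryos in a library, so the p-values below measure the spread between these libraries alone. They describe the material as embryonic pluripotency in vivo and give a code number, 239 for KO1, WT1 and WT2 and 237 for KO2, with no statement of what it stands for.

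The miR-302 microRNAs are made in pluripotent cells and in the early embryo. A microRNA lowers the messenger RNAs whose 3′ untranslated region (3′UTR) pairs with its seed, bases 2 to 8 counted from the 5′ end. At this stage the epiblast, which forms the embryo itself, is gastrulating: cells pass through the primitive streak and become mesoderm and definitive endoderm under the control of the ligand Nodal and its inhibitors. The embryo is wrapped in tissues that are not part of it. Trophoblast giant cells and the ectoplacental cone invade the uterus, parietal and visceral endoderm form the yolk sacs, and the mother's decidua and uterine epithelium lie directly outside, so a dissected whole embryo can bring any of them along.

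The mature sequences of the family, from RefSeq (GRCm38.p6), show which microRNAs share a seed with the deleted ones. Capitals mark bases 2 to 8.
miR-302b-3p: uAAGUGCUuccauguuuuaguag
miR-302d-3p: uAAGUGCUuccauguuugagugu
miR-302c-3p: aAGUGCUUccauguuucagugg
miR-291a-3p: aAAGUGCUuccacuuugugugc
miR-294-3p: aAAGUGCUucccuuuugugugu
miR-295-3p: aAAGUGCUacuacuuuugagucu
The seed AAGUGCU of miR-302b and miR-302d is also that of miR-291a, miR-294 and miR-295, which lie on chromosome 7 in the miR-290 cluster. In miR-302c the same bases begin 1 position earlier, so its bases 2 to 8 read AGUGCUU. On chromosome 3 (GRCm38.p6, plus strand) Mir302b starts at 127545228 and Mir302d ends at 127545689, with Mir302c and Mir302a between them and Mir367 after them (127545733 to 127545807). The precursors of miR-302a to miR-302d held 0 reads in KO1, 0 in KO2, 14 in WT1 (95% Poisson interval 7.65 to 23.5) and 25 in WT2 (16.2 to 36.9), which matches the labels; a count of 0 allows up to 3 reads, and interval and limit cover counting error only. Of the single precursors, Mir302a had 5 and 9 WT reads and Mir302d 5 and 11, while Mir302b and Mir302c had 2 or 3 in each WT library. Mir367, outside the set summed here, had 1 read in each KO library, 0 in WT1 and 3 in WT2. Mature microRNAs were not measured. Larp7, the gene whose intron holds the cluster, stood at 923 in KO1, 989.6 in KO2, 942 in WT1 and 2069 in WT2; these reads carry no strand, and Larp7 runs against the cluster. WT2 was the high library and the other 3 were alike.

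The 4 libraries held 4912827 (KO1) to 9184436 (WT1) gene-assigned reads. Levels below are the authors' normalised counts, and fold changes are differences of log2(value + 1), KO minus WT, which understate the change of low genes. All coordinates of genes refer to GRCm38 (GENCODE M21). A gene was tested where its mean over the 4 libraries was 10 or more, which left 12492 of 24421 genes; the other 11929 were too low to describe. WT2 stood apart from the rest. It was the library farthest from the mean of the 4 for 49.5% of tested genes, against 20.4% for WT1, 18.5% for KO2 and 11.5% for KO1, and the WT libraries were more than 2-fold apart in 20.5% of genes where the KO libraries were so in 8.69%. Over 12053 tested genes with a known transcript, WT2's deviation from the mean had a Spearman correlation of -0.449 with transcript GC content, against 0.123 to 0.323 in the other libraries (a description, since genes of 1 library share its amplification). The genes of the Hist1, Hist2 and Hist3 clusters, whose transcripts mostly lack a poly(A) tail, were highest in WT2 in 51 of 52 cases, with a summed level of 5106 in KO1, 7655 in KO2, 5473 in WT1 and 19056 in WT2. Results that rest on WT2 are therefore given without it as well.

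No gene passed the test between KO and WT when all 12492 were adjusted together (limma's moderated test, smallest adjusted p = 0.85). By limma 385 genes (3.08%) had an unadjusted p below 0.05, 272 higher (2.18%) and 113 lower (0.905%) in KO. EdgeR called 0 genes on the recovered whole reads, with 399 (3.19%) below 0.05 before adjustment, and DESeq2 called 34 (0.272%), 21 higher (0.168%) and 13 lower (0.104%) in KO. Of those 34, 12 were trophoblast markers, all higher in KO, 3 were maternal markers, all lower in KO, and 0 were markers of embryonic germ layers. The trophoblast lists counted here had 8 to 12 tested genes each and the maternal lists at most 14. The embryonic lists had 2 to 14 each, so at the overall share of 0.272% a count of 0 says little about them. With 2 libraries against 2, an exact permutation test of a single gene cannot give a two-sided p below 0.333. Leaving out a library changed the limma count to 39 without KO1, 18 without KO2 and 30 without WT1 but left it at 0 without WT2. The spread of the remaining single library is then taken from the other genotype.

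The genes of each tissue were summed in each library to see what the dissected material held, using marker lists for 9 embryonic, 7 extraembryonic, 5 maternal and 1 shared cell type. All 14 epiblast markers were present in every library, at 0.459% of reads in KO1, 0.214% in KO2, 0.372% in WT1 and 0.257% in WT2. Epiblast RNA was thus present in all 4 libraries. Giant cell markers took 0.671% and 1.20% of reads in the KO libraries and 0.246% and 0.110% in WT, visceral endoderm 0.187% (WT1) to 0.434% (WT2), and parietal endoderm 0.107% (WT2) to 0.301% (KO2). Maternal tissue was in every library but unevenly: decidual markers took 0.295% of reads in WT1, 0.109% in KO1, 0.113% in KO2 and 0.0171% in WT2, while uterine epithelium took 0.155% in WT2 and at most 0.0104% in the others. The embryonic globins Hbb-bh1, Hbb-y and Hba-x had 1 read in all. The 6 adult globin genes are listed at 0 in all 15 libraries of the 3 stages, so they cannot show whether maternal blood was present. Of the 13 markers of natural killer and T cells 1 reached the minimum mean; natural killer granzymes held 4 to 18 reads in KO1 and at most 5 in any other library. No mitochondrial transcript is listed in the table.

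**Figure D1:**
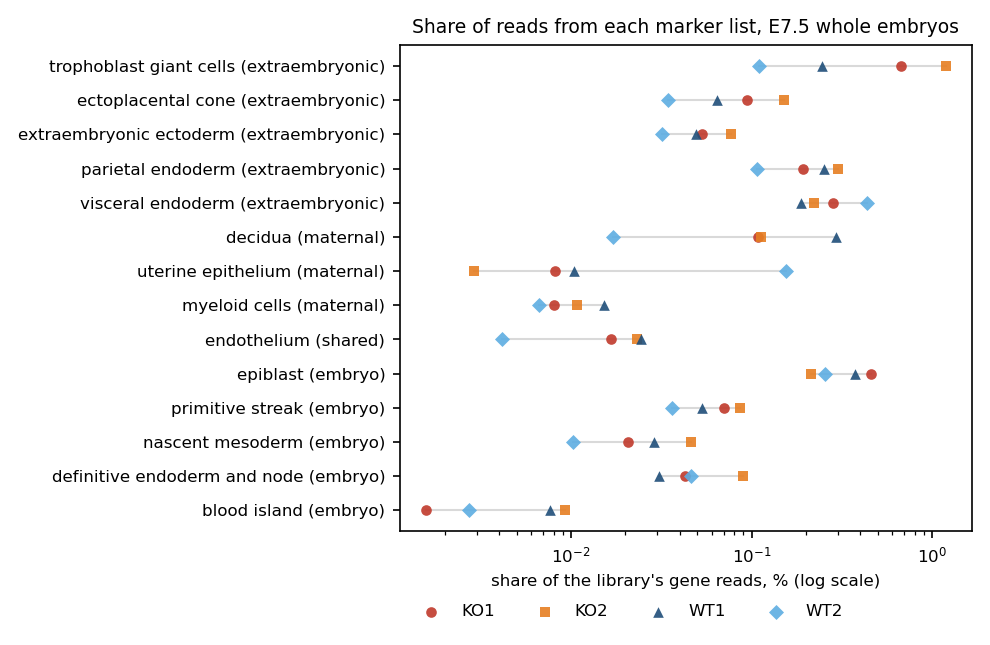
Share of each library's gene reads (horizontal axis, %, log scale) that fell on the genes of 14 marker lists; each symbol is 1 library and the grey line spans the 4. Giant cell markers separate KO1 (0.671%) and KO2 (1.20%) from WT1 (0.246%) and WT2 (0.110%), while WT1 is highest for decidua (0.295%) and WT2 for uterine epithelium (0.155%).

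Genes of trophoblast giant cells stood higher in both KO libraries, with the highest median log2 fold change of all lists tested. Prl3d1 is a placental lactogen that giant cells secrete from implantation on (ENSMUSG00000057170.6, chromosome 13, 27094190 to 27100258, plus strand). It stood at 24270 in KO1, 44351 in KO2, 7965 in WT1 and 4380 in WT2. Both KO libraries were above both WT libraries, KO2 the highest and WT2 the lowest, and the log2 fold change was 2.47 (SE 0.45) with an adjusted p of 0.85 by limma and 6.63e-06 by DESeq2. Prl7a1, a related prolactin-family hormone (ENSMUSG00000006488.17, chromosome 13, 27633366 to 27642493, minus strand), had the same order, at 2473 in KO1, 5628 in KO2, 787 in WT1 and 281 in WT2. Cts7, a cathepsin protease of the placenta, stood at 5415 in KO1, 7451 in KO2, 1247 in WT1 and 152 in WT2, and its neighbour Cts8 at 910.1 in KO1, 1377 in KO2, 220.0 in WT1 and 33.9 in WT2. In both, the KO libraries were within 2-fold of each other and WT1 and WT2 more than 6-fold apart. Of the 16 giant cell markers 12 were tested; all 12 had a positive log2 fold change, as 48.9% of all tested genes did, and in 10 both KO libraries lay above both WT libraries, where 16.1% of all tested genes did so. The median log2 fold change of these 12 was 2.38, against -0.01 over all tested genes. It was 2.01 without WT2, 2.85 without WT1, 2.87 without KO1 and 1.98 without KO2. In bulk RNA fewer cells of a type and less RNA per cell cannot be told apart. The remaining 4 markers held 0 to 16 reads in a library, and Prl3b1 and Ctsj, hormone and protease of the later placenta, held 0 in all 4.

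The 2 giant cell markers whose libraries overlapped were Hand1 and Slco2a1. Hand1, the transcription factor that giant cells need to form and that early mesoderm also uses, stood at 949 in KO1, 1860 in KO2, 1103 in WT1 and 898 in WT2, so KO1 lay among the WT values. Slco2a1, a prostaglandin transporter, stood at 73.8 in KO1, 82.5 in KO2, 206 in WT1 and 16.3 in WT2 and was highest in WT1. Prl6a1 stood at 466 in KO1, 466 in KO2, 369 in WT1 and 26.4 in WT2, where WT1 was close to the KO libraries and only WT2 was low. Prl3d2 (6422 and 12374 in KO, 2183 and 1298 in WT) and Prl3d3 (4159 and 8762 in KO, 1524 and 945 in WT) are near-identical copies of Prl3d1, and Prl2c2 (366 and 1320 in KO, 117 and 57.8 in WT) also has close copies, so these values are uncertain: the authors' counting may have split shared reads. The same holds for Mmp1a and Mmp1b below. By symbol, 15 genes of the prolactin family were tested, a grouping made after their values were seen. In 14 both KO libraries lay above both WT libraries, against 16.1% of all tested genes, and all 15 were lowest in WT2. The 15 include Prl8a2 and Prl3c1, which are in the list of maternal decidua. Prl8a2 overlapped, and Prl3c1 was separated by a narrow margin (59.8 in KO1 against 59.0 in WT1).

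The ectoplacental cone, the core of diploid trophoblast from which giant cells and spongiotrophoblast arise, showed a mixed picture. Its secreted products stood higher in KO: Psg22, a pregnancy-specific glycoprotein, at 842 in KO1, 1333 in KO2, 179 in WT1 and 31.4 in WT2. Prl5a1 stood at 1375 in KO1, 2434 in KO2, 338 in WT1 and 102 in WT2, and their log2 fold changes were 3.80 (SE 0.72) and 3.29 (SE 0.56). Plac1, a membrane-linked protein of trophoblast, stood at 2330 and 2834 in KO and 1020 and 657 in WT. Ascl2, the transcription factor that maintains the cone, went the other way by a small margin, at 206 in KO1, 194 in KO2, 251 in WT1 and 209.8 in WT2, while Phlda2, an imprinted growth restrainer of the placenta, was high in KO2 alone, at 892 in KO1, 3111 in KO2, 1361 in WT1 and 992 in WT2. Over the list 8 of 14 markers were tested, 3 with KO above WT and 1 below, with a median log2 fold change of 0.45; of all tested genes 16.1% lay above and 12.7% below. The median was 0.07 without KO2 and 0.12 without WT2, and 1.22 without KO1 and 0.79 without WT1, so its size rested on single libraries.

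Extraembryonic ectoderm, which holds the trophoblast stem cells, did not stand higher as a group. Plet1, a surface protein of early trophoblast, stood at 1677 in KO1, 2584 in KO2, 718 in WT1 and 583 in WT2, and the X-linked homeobox gene Rhox6 at 152 in KO1, 307 in KO2, 103 in WT1 and 95.5 in WT2. Its relative Rhox9 stood at 75.1 in KO1, 159 in KO2, 37.2 in WT1 and 36.4 in WT2. All 3 had both KO libraries on top. The stem cell factors did not follow them. Cdx2 stood at 47.3 in KO1, 36.9 in KO2, 74.5 in WT1 and 54.0 in WT2. Elf5 stood at 40.4 in KO1, 79.3 in KO2, 83.6 in WT1 and 72.9 in WT2. Bmp8b, a ligand of this tissue, stood at 45.9 in KO1, 64.1 in KO2, 125 in WT1 and 91.7 in WT2. For Cdx2 and Bmp8b both KO libraries were below both WT libraries. The 12 tested genes of 13 had a median of -0.07, with 4 above and 2 below, against 16.1% and 12.7% of all tested genes. The median ran from -0.30 without WT2 to 0.17 without KO1. Tfap2c, shared by trophoblast and germ cells, was in the first group with a log2 fold change of 0.41.

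Several genes outside the lists had the pattern of the giant cell markers. Both KO libraries exceeded both WT libraries by a gap of at least 1 log2 unit in 57 of all tested genes (0.456%) and were below them by as much in 45 (0.36%). Of the 57, 25 are below a mean of 1 in both tables of sorted crest cells, and of these 20 belonged to the prolactin, cathepsin, pregnancy-specific glycoprotein or Mmp1 families or were Ceacam15 and Pfpl, a count made after the values were seen. Pfpl, a perforin-like protein, stood at 7157 in KO1, 7642 in KO2, 1458 in WT1 and 240.0 in WT2. Mmp1a, an interstitial collagenase, stood at 1193 in KO1, 1766 in KO2, 241 in WT1 and 27.6 in WT2, and its copy Mmp1b at 135 and 215 against 30.9 and 1.26. Psg29 stood at 790.4 and 1308 in KO against 247 and 66.6 in WT. Prl8a9, with a smaller gap, stood at 1439 in KO1, 986 in KO2, 559 in WT1 and 23.9 in WT2, where KO1 was above KO2. These genes were not seen, or hardly, in crest cells. Adm, Mmp9 and Nppb are at low levels there as well: Adm, the vessel-dilating peptide adrenomedullin, stood at 8494 in KO1, 15301 in KO2, 3426 in WT1 and 1515 in WT2. Mmp9, the gelatinase of invading trophoblast, stood at 2901 in KO1, 2144 in KO2, 877 in WT1 and 261 in WT2. Nppb, a natriuretic peptide, stood at 167 in KO1, 366 in KO2, 57.6 in WT1 and 17.6 in WT2. DESeq2 gave adjusted p-values of 0.000188 for Adm, 0.00416 for Mmp9, 0.00169 for Nppb and 0.00016 for Psg29, and limma none below 0.85.

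The yolk sac endoderms differed from each other. Parietal endoderm, which lays down the thick basement membrane outside the embryo, had 9 of 9 markers with a positive log2 fold change and a median of 0.74, but only 3 with KO above WT, against 16.1% of all tested genes. Thbd, the membrane thrombomodulin, stood at 234 in KO1, 284 in KO2, 221 in WT1 and 108 in WT2. Pth1r, the parathyroid hormone receptor of this tissue, stood at 1504 in KO1, 2781 in KO2, 1266 in WT1 and 1098 in WT2, and the laminin chain Lama1 at 693 in KO1, 1095 in KO2, 668 in WT1 and 413 in WT2. Another laminin chain, Lamb1, stood at 1438 in KO1, 2553 in KO2, 1439 in WT1 and 759 in WT2, where KO1 equalled WT1. WT2 was lowest for 8 of the 9; the median was 0.24 without WT2, 0.40 without KO2 and 1.25 without WT1. Visceral endoderm, the absorptive layer that feeds the embryo, had a median of 0.03 over 14 of 14 markers (-0.14 without KO1 to 0.30 without KO2) and 1 with KO above WT. Its transthyretin gene Ttr stood at 1713 in KO1, 1367 in KO2, 856 in WT1 and 2996 in WT2. Its apolipoprotein Apoa1 stood at 4470 in KO1, 3108 in KO2, 2272 in WT1 and 7458 in WT2, its alpha-fetoprotein gene Afp at 1632 in KO1, 565 in KO2, 507 in WT1 and 1763 in WT2 and the protease inhibitor Spink1 at 3930 in KO1, 3866 in KO2, 1630 in WT1 and 12352 in WT2. WT2 was highest and WT1 lowest for these 4 secreted products. Other members ran the other way. Amn, part of the receptor complex that takes up proteins, stood at 911 in KO1, 669 in KO2, 723 in WT1 and 459 in WT2. Soat2, which esterifies cholesterol, stood at 415 in KO1, 295 in KO2, 297 in WT1 and 224 in WT2. Hnf4a, the transcription factor of this tissue and the 1 marker with KO above WT, stood at 156 in KO1, 163 in KO2, 124 in WT1 and 122 in WT2. For these 3 WT2 was lowest. Over the 14 markers WT2 was highest for 6 and lowest for 7, so the list had no single library order.

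Uterine epithelial genes stood lower in KO while decidual genes had no steady direction, and a different WT library was highest for each tissue. Ltf (ENSMUSG00000032496.7, chromosome 9, 111019271 to 111042767, plus strand), the lactotransferrin of uterine epithelium, had 1 read in each KO library and a normalised count of 56.2 and 1310 in WT1 and WT2. Prss28, a serine protease of implantation, stood at 0 in KO1, 0.801 in KO2, 31.6 in WT1 and 2300 in WT2. Its relative Prss29 stood at 6.96 in KO1, 2.40 in KO2, 139 in WT1 and 6058 in WT2. Sprr2f, a small proline-rich protein of the lining, stood at 1.39 in KO1, 2.40 in KO2, 2.81 in WT1 and 590.5 in WT2. All of these were highest in WT2 by more than 20-fold over WT1, and for Ltf, Prss28 and Prss29 WT1 still lay above both KO libraries. Muc1, a mucin of that surface, stood at 5.57 in KO1, 3.21 in KO2, 9.14 in WT1 and 70.4 in WT2. Sftpd, a secreted collectin outside the list, stood at 0 in KO1, 0 in KO2, 4.22 in WT1 and 118 in WT2. Wfdc2, a secreted protease inhibitor that the embryo also makes, overlapped, at 465 in KO1, 131 in KO2, 309.9 in WT1 and 868 in WT2. The 9 tested genes of 13 all had a negative log2 fold change with a median of -2.36, and in 7 both KO libraries were below both WT libraries, against 12.7% of all tested genes. In 6 of the 9 the KO mean was under 10, so they reached the minimum mean through WT alone. The median was -0.95 without WT2 and -4.04 without WT1.

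Decidual genes, from the uterine stroma that encloses the implanted embryo, were highest in WT1 for 13 of 14 markers and lowest in WT2 for 11. Des, a muscle-type filament that decidual cells contain, stood at 394 in KO1, 719.6 in KO2, 6296 in WT1 and 239 in WT2. Tdo2, an enzyme that breaks down tryptophan, stood at 298 in KO1, 345 in KO2, 2581 in WT1 and 181 in WT2. The secreted signal Wnt4 stood at 64.0 in KO1, 88.1 in KO2, 601 in WT1 and 26.4 in WT2. Bmp2, another decidual signal, stood at 192 in KO1, 309 in KO2, 1046 in WT1 and 146 in WT2. The KO libraries lay between the WT libraries in each of these. Prl8a2, the decidual prolactin-related protein, stood at 5952 in KO1, 5925 in KO2, 6897 in WT1 and 294 in WT2, alike in 3 libraries and low in WT2, and Prl3c1 at 59.8 in KO1, 73.7 in KO2, 59.0 in WT1 and 5.03 in WT2. Dcn, a proteoglycan of stroma, and Esr1, the oestrogen receptor, were the 2 of 14 with KO below WT, and Prl3c1 the 1 with KO above. Of all tested genes 12.7% lay below and 16.1% above. Dcn stood at 62.6 in KO1, 15.2 in KO2, 419 in WT1 and 64.1 in WT2. Esr1 stood at 43.1 in KO1, 15.2 in KO2, 71.7 in WT1 and 57.8 in WT2. The list's median of -0.73 turned to 0.78 without WT1 and was -2.13 without WT2. The sign of the decidual difference thus rested on WT1.

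Cells that could come from mother or embryo showed the same dependence. Emcn, a surface protein of vein and capillary endothelium, stood at 8.35 in KO1, 12.8 in KO2, 186 in WT1 and 6.28 in WT2, high in WT1 alone. The junction protein Pecam1 stood at 394 in KO1, 328 in KO2, 262 in WT1 and 50.3 in WT2. Cdh5, the endothelial cadherin, stood at 214 in KO1, 322 in KO2, 158 in WT1 and 67.8 in WT2, and in both KO was above WT. Pecam1 and Cdh5 were the 2 of 8 tested endothelial markers with KO above WT, and 0 had KO below. For all tested genes the shares were 16.1% and 12.7%. The endothelial median of -0.66 became 0.96 without WT1 and 0.20 without KO1, and was -1.94 without WT2 and -1.45 without KO2. In 3 of the 8 the KO mean was under 10, so they reached the minimum mean through WT alone. Of 11 tested myeloid markers 5 had a positive log2 fold change. Cd68, a lysosomal protein of macrophages, stood at 45.9 and 45.7 in KO against 36.5 and 18.8 in WT, and H2-Aa, a class II antigen-presenting molecule, at 19.5 and 15.2 against 43.6 and 40.2.

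**Figure D2:**
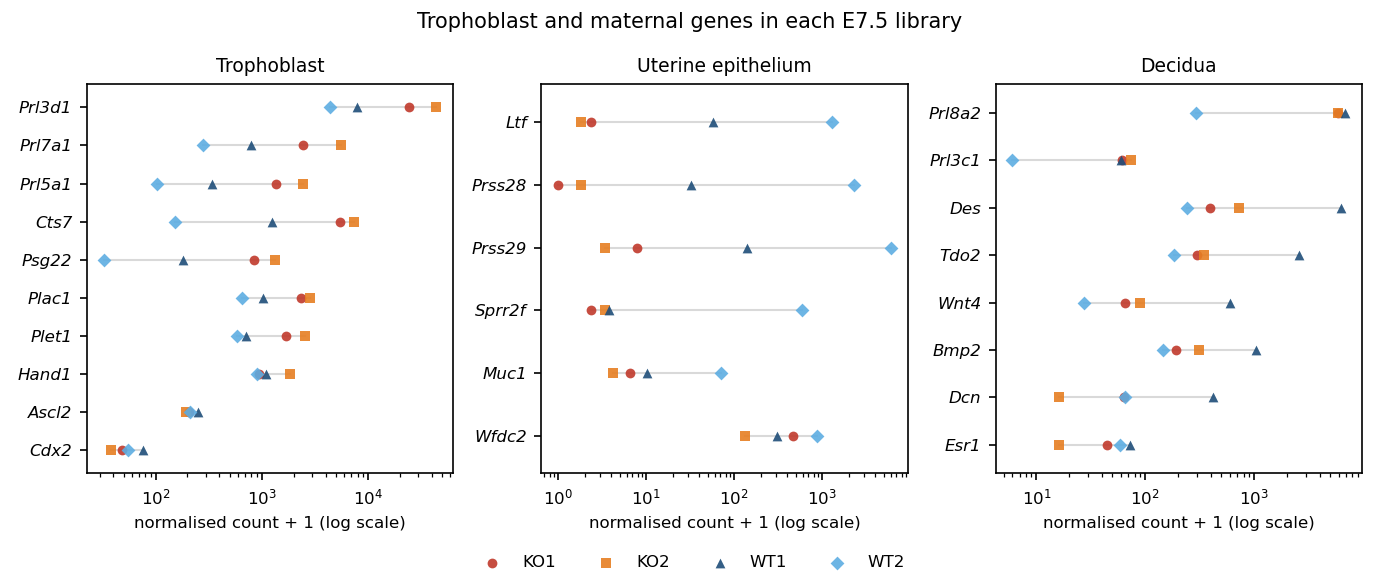
Normalised count + 1 (log scale) of trophoblast, uterine epithelial and decidual genes, 1 symbol for each library. Prl3d1, Prl7a1, Prl5a1, Cts7, Psg22, Plac1 and Plet1 have both KO libraries on the right; Ltf, Prss28 and Prss29 lie in the order KO, WT1, WT2; and Des, Tdo2, Wnt4 and Bmp2 have WT1 alone on the right.

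To separate genes of the embryo proper from this carry-over, each tested gene was placed by its level in the sorted crest libraries, which were sorted from embryos on a crest lineage marker. Genes with a mean of 10 or more in both the E8.5 and the E9.5 table and in no extraembryonic or maternal list are called crest-shared (10794 genes). Genes below 1 in both tables are called low in crest (212), and 1486 fell in neither class. Crest means were taken over all libraries with a column, 7 at E8.5 and 4 at E9.5, KO and WT together. The crest-shared class misses embryonic genes that crest cells do not express: 7 of 14 epiblast and 2 of 12 streak markers tested are above the minimum in both crest tables. The class can also hold genes that uterus or trophoblast express beside the embryo.

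Between KO and WT, and also within each genotype, log2 differences were smaller among crest-shared genes than among genes low in crest. The median absolute log2 fold change was 0.24 for crest-shared genes, 0.49 for genes of neither class and 0.84 for genes low in crest. For scale, KO1 and KO2 differed from each other by a median of 0.23 in crest-shared genes, and WT1 and WT2 by 0.52. The same within-genotype medians were 0.57 and 0.79 for genes of neither class and 0.62 and 1.11 for genes low in crest. In each of the 3 classes the median difference between the genotypes was smaller than that between the WT libraries. The first compares means of 2 libraries, which vary less than the single libraries of the second. The comparison therefore does not show whether the genotypes differ by more than the spread. Both KO libraries lay above both WT libraries by a gap of at least 1 log2 unit in 15 crest-shared genes (0.139%) and below them in 22 (0.204%); for genes low in crest these were 25 (11.8%) and 7 (3.3%). Without a minimum gap, both KO libraries lay above both WT libraries in 15.9% of crest-shared genes and below them in 12.1%, and for genes low in crest in 29.2% and 12.7%. DESeq2 called 18 of the 212 genes low in crest (8.49%) and 7 of the 10794 crest-shared ones (0.0649%), all 7 lower in KO. Among the 7, Cldn10 (KO mean 5.59) and Sparcl1 (KO mean 3.58) reached the minimum mean through WT alone. Among the 18, Ltf, Prss28 and Prss29 did so too. Limma called 0 crest-shared genes, with 261 (2.42%; 46 or 21.7% of genes low in crest) at an unadjusted p below 0.05, 183 higher (1.7%) and 78 lower (0.723%), and edgeR 0, with 243 (2.25%).

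**Figure D3:**
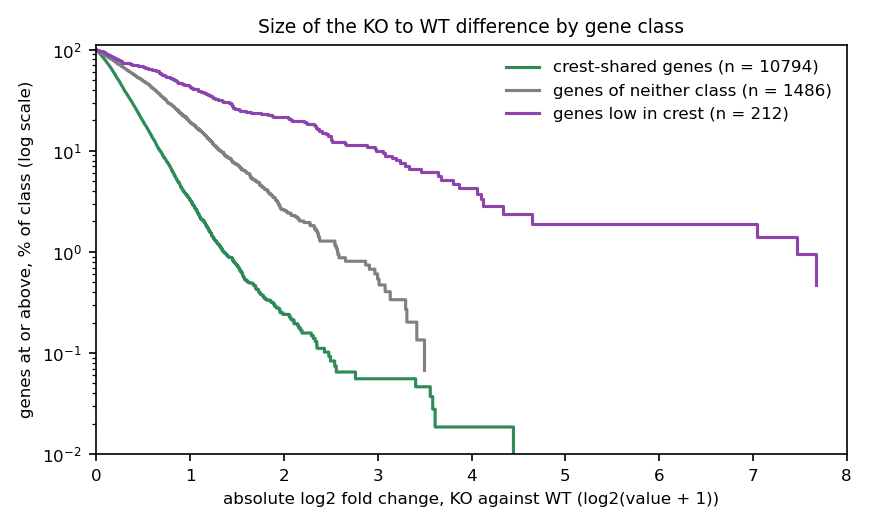
For each absolute log2 fold change between KO and WT (horizontal axis), the percentage of genes in a class at or above it (vertical axis, log scale). The line of the 212 genes low in crest lies above that of the 10794 crest-shared genes over the whole range, with medians of 0.84 and 0.24.

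Among crest-shared genes that stood lower in KO, 5 with KO libraries close together and WT libraries well above them are described first. Clu, Cldn10 and Tgfbi, given further below, also had this pattern. Tmem176a, a membrane protein (ENSMUSG00000023367.14, chromosome 6, 48840919 to 48847071, plus strand) stood at 58.4 in KO1, 56.1 in KO2, 361 in WT1 and 237 in WT2, with KO libraries alike and both WT libraries several-fold above them, a log2 fold change of -2.33 (SE 0.36), and an adjusted p of 0.85 by limma and 0.000147 by DESeq2. Its neighbour Tmem176b, a related membrane protein, stood at 86.3 in KO1, 93.0 in KO2, 526 in WT1 and 268 in WT2. Ifitm3 (ENSMUSG00000025492.6, chromosome 7, 141009586 to 141010770, minus strand), an antiviral membrane protein also known from early germ cells, stood at 184 in KO1, 188 in KO2, 487 in WT1 and 754 in WT2, 3.25-fold lower in KO. B2m, the light chain of class I antigen-presenting molecules, stood at 274 in KO1, 255 in KO2, 727 in WT1 and 514 in WT2. Crip1, a small LIM-domain protein, stood at 152 in KO1, 192 in KO2, 707 in WT1 and 343 in WT2. In these 5 no library of one genotype overlapped the other, which the rule that named them required.

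Others of this group were in the same library order as the uterine epithelial genes. Clu (ENSMUSG00000022037.15, chromosome 14, 65968483 to 65981547, plus strand), the secreted chaperone clusterin, stood at 93.2 in KO1, 109.8 in KO2, 661 in WT1 and 7498 in WT2. Cldn10, a tight-junction claudin, stood at 5.57 in KO1, 5.61 in KO2, 43.6 in WT1 and 134 in WT2, and in both WT2 was above WT1 and WT1 above KO, as for Ltf, Prss28 and Prss29. Ifitm3 had that order too. Cldn10, and Sparcl1 below, had KO means under 10 and reached the minimum mean through WT alone. Gdap10 stood at 34.8 in KO1, 20.0 in KO2, 216 in WT1 and 89.2 in WT2, highest in WT1. Sparcl1, a matrix protein, stood at 5.57 in KO1, 1.60 in KO2, 164 in WT1 and 2.51 in WT2, high in WT1 alone; DESeq2 called it (adjusted p = 0.0495) although its libraries overlap, and without WT1 its log2 fold change was 0.23. Beside these values, summed uterine epithelial markers stood at 558.0 in KO1, 204 in KO2, 670 in WT1 and 11510 in WT2. Of these sums, Wfdc2, which the embryo also makes, gave 465 in KO1, 131 in KO2, 309.9 in WT1 and 868 in WT2. Summed decidual markers stood at 7427, 7964, 19067 and 1268 in the same order. The part of either tissue in the genes named here was not tested. Mgst1, a microsomal glutathione transferase, stood at 102 in KO1, 48.9 in KO2, 237 in WT1 and 219.9 in WT2. Tgfbi, a matrix protein induced by TGF-beta, stood at 12.5 in KO1, 16.8 in KO2, 51.3 in WT1 and 60.3 in WT2, and for both WT1 and WT2 were within 1.5-fold of each other. Of the 22 crest-shared genes lower in KO by a gap of at least 1 log2 unit, 16 had WT libraries within 2-fold of each other, 3 were over 2-fold higher in WT2 and 3 over 2-fold higher in WT1.

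The crest-shared genes that stood higher in KO showed smaller differences, mostly near 2-fold, and neither limma nor DESeq2 called any. Sema3f (ENSMUSG00000034684.12, chromosome 9, 107681500 to 107710475, minus strand), a secreted guidance cue that repels axons and crest cells, stood at 459 in KO1, 453 in KO2, 213 in WT1 and 146 in WT2, with a log2 fold change of 1.37 (SE 0.32). Olfm1 (ENSMUSG00000026833.18, chromosome 2, 28192992 to 28230736, plus strand), a secreted olfactomedin known for its role in crest production, stood at 463 in KO1, 500.0 in KO2, 227 in WT1 and 207 in WT2. Fam78b stood at 79.3 in KO1, 83.3 in KO2, 15.5 in WT1 and 25.1 in WT2. Paqr4, a membrane receptor-like protein, stood at 102 in KO1, 142 in KO2, 44.3 in WT1 and 27.6 in WT2. In each of these the KO libraries were within 1.5-fold of each other. They were above both WT libraries, which the rule that named these genes required.

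The other genes named by the same rule have varied roles. Sdc1, the proteoglycan syndecan 1, stood at 2171 in KO1, 2341 in KO2, 1173 in WT1 and 729 in WT2. Ext1, which builds heparan sulphate chains, stood at 1354 in KO1, 1434 in KO2, 647 in WT1 and 688 in WT2. Akt1 (ENSMUSG00000001729.14, chromosome 12, 112653821 to 112674884, minus strand), the growth-signalling kinase, stood at 3198 in KO1, 3733 in KO2, 1664 in WT1 and 1564 in WT2. Gna12, a G protein subunit, stood at 1136 in KO1, 1212 in KO2, 615 in WT1 and 413 in WT2. Abhd17c, a depalmitoylating enzyme, stood at 2946 in KO1, 2456 in KO2, 1415 in WT1 and 967 in WT2. Cpm, a carboxypeptidase, stood at 557 in KO1, 720.4 in KO2, 318 in WT1 and 268 in WT2. Their unadjusted limma p-values ran from 0.00291 (Sema3f) to 0.00616 (Cpm). Summed giant cell markers stand at 45899.8 in KO1, 84433 in KO2, 15870.1 in WT1 and 8164 in WT2, higher in the same libraries; their part in these genes was not tested.

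**Figure D4:**
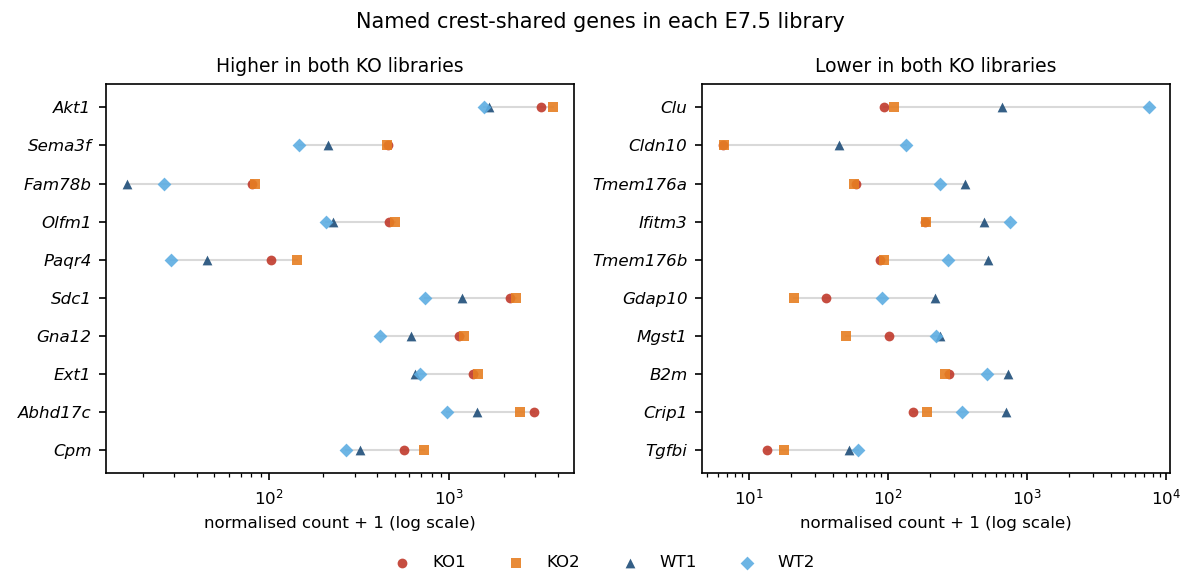
Normalised count + 1 (log scale) of 10 crest-shared genes in each direction, 1 symbol for each library. They have the smallest unadjusted limma p among genes without overlap between KO and WT and with a higher group mean of 50 or more. The separation of the KO pair from the WT pair thus follows from the choice. On the left the KO pair lies above the WT pair, by about 2-fold for Akt1, Olfm1 and Ext1; on the right it lies below, and Clu has WT2 (7498) far above WT1 (661).

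Within the embryo, epiblast genes did not follow genotype. Pou5f1, the Oct4 pluripotency factor, stood at 2605 in KO1, 789 in KO2, 1963 in WT1 and 1557 in WT2. Nanog stood at 277 in KO1, 109 in KO2, 242 in WT1 and 371 in WT2. KO2 was the lowest library for both, and KO1 lay above WT1. Dnmt3b, the DNA methyltransferase of the epiblast, stood at 17082 in KO1, 5065 in KO2, 12946 in WT1 and 4949 in WT2, where KO1 paired with WT1 and KO2 with WT2. Slc7a3, an amino acid transporter, stood at 2540 in KO1, 255 in KO2, 1641 in WT1 and 3173 in WT2, about 10-fold apart between the KO libraries. Otx2, needed for the forebrain, stood at 537 in KO1, 375 in KO2, 385 in WT1 and 709 in WT2. The 14 markers had a median of 0.02 between genotypes (-0.57 without KO1 to 0.30 without KO2), whereas the KO libraries differed from each other by a median of -1.10 (KO2 minus KO1), KO2 being lower for 12 of the 14. Trim71, an RNA-binding protein that pluripotent cells need and a target of let-7, was the 1 marker with KO above WT, at 447 in KO1, 409 in KO2, 241 in WT1 and 177 in WT2. Dppa4, a chromatin protein and the 1 marker with KO below WT, stood at 58.4 in KO1, 109 in KO2, 179.9 in WT1 and 159.6 in WT2. Of all tested genes 16.1% lay above and 12.7% below.

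Genes of the primitive streak stood somewhat higher in KO. Mixl1 (ENSMUSG00000026497.7, chromosome 1, 180693043 to 180697034, minus strand), the homeobox factor of mesoderm and endoderm precursors, stood at 1652 in KO1, 2073 in KO2, 1053 in WT1 and 609 in WT2, with a log2 fold change of 1.21 (SE 0.34). Eomes, which drives cells out of the epiblast, stood at 1323 in KO1, 1127 in KO2, 868 in WT1 and 788 in WT2. Fgf8, the growth factor these cells need to migrate, stood at 587 in KO1, 544 in KO2, 288 in WT1 and 501 in WT2. In all 3 both KO libraries were above both WT libraries. Evx1, of the posterior streak, stood at 259 in KO1, 497 in KO2, 246 in WT1 and 69.1 in WT2, where WT1 was near KO1 and WT2 low. T, the Brachyury gene, overlapped, at 154 in KO1, 178 in KO2, 174 in WT1 and 118 in WT2. Lhx1 stood at 720.4 in KO2 and at 117, 183 and 148 in KO1, WT1 and WT2. Of 12 tested markers of 13, 11 had a positive log2 fold change, against 48.9% of all tested genes, and 4 did not overlap, all with KO above, against 16.1%. The median was 0.57; it was 0.32 without KO2 and 0.48 to 0.58 without any other single library.

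Nascent mesoderm was higher chiefly in KO2. Mesp1, the first factor of heart and head mesoderm, stood at 149 in KO1, 565 in KO2, 296 in WT1 and 119 in WT2, so that KO1 lay below WT1. Its neighbour Mesp2 stood at 80.7 in KO1, 87.3 in KO2, 53.4 in WT1 and 22.6 in WT2, and the paraxial mesoderm gene Tcf15 at 30.6 in KO1, 27.2 in KO2, 7.73 in WT1 and 11.3 in WT2. Twist1, which mesoderm needs to migrate, stood at 47.3 in KO1, 52.1 in KO2, 11.9 in WT1 and 22.6 in WT2. KO was above WT in these 3 and in Lefty2, given below. These are 4 of the 10 tested genes of the list, against 16.1% of all tested genes, and 0 had KO below WT. All 10 tested genes of 14 had a positive log2 fold change, against 48.9% of all tested genes, with a median of 1.09. In 2 of the 10, Tcf15 among them, the WT mean was under 10, so they reached the minimum mean through KO alone. The median was 0.20 without KO2, 0.57 without WT2, 1.59 without KO1 and 1.52 without WT1, and KO2 exceeded KO1 in 9 of the 10.

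Later derivatives differed between the KO libraries more than between genotypes. Myl7, a light chain of heart muscle, stood at 39.0 in KO1, 462 in KO2, 73.8 in WT1 and 123 in WT2. Etv2, the factor of blood and vessel precursors, stood at 27.8 in KO1, 288 in KO2, 163 in WT1 and 77.9 in WT2. Foxf1, of extraembryonic mesoderm, stood at 1.39 in KO1, 227 in KO2, 83.6 in WT1 and 7.54 in WT2. KO2 was highest for each and KO1 lowest. The blood island list had a median of -0.30 between genotypes (-1.42 without KO2 to 0.95 without KO1) and of 2.50 between KO2 and KO1. Bmp4, the ligand that specifies these cells, stood at 66.8 in KO1, 123 in KO2, 212 in WT1 and 141 in WT2 and was lower in both KO libraries than in either WT library. Hcn4, a channel of the first heart cells, was also lower in both, at 2.78 in KO1, 2.40 in KO2, 28.8 in WT1 and 6.28 in WT2. Its KO mean was 2.59, so it reached the minimum mean through WT alone. Of the 6 tested heart field genes 1 had KO above WT and 1, Hcn4, below. Their log2 fold changes ran from -2.04 to 1.34, with a median of -0.35 (-1.32 without KO2 to 0.63 without KO1). In 2 of the 6 the KO mean was under 10. Bmp4 was the 1 of 3 tested genes of its list with KO below WT. For scale, 16.1% of all tested genes lay above and 12.7% below.

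Definitive endoderm and node markers stood higher in KO in 7 of 8 tested cases, with a median of 0.80. Foxa1 stood at 89.1 in KO1, 112 in KO2, 14.1 in WT1 and 52.8 in WT2. Foxa2, the pioneer factor of endoderm and node, stood at 125 in KO1, 157 in KO2, 87.1 in WT1 and 109 in WT2. Nog, the BMP antagonist of the node, stood at 69.6 in KO1, 139 in KO2, 35.1 in WT1 and 40.2 in WT2. These 3 had both KO libraries on top, as 16.1% of all tested genes did. Sox17 stood at 590.0 in KO1, 1610 in KO2, 596 in WT1 and 487 in WT2, with KO2 alone high. The median was 0.24 without KO2, 0.32 without WT1 and 1.71 without KO1.

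Neural and crest-border genes were low at this stage. The neural plate list had 6 of 13 genes tested, Six3 standing at 2.78 in KO1, 26.4 in KO2, 6.33 in WT1 and 5.03 in WT2. Irx3 stood at 58.4 in KO1, 144 in KO2, 78.0 in WT1 and 56.5 in WT2. Of the border list 8 of 13 were tested. Tfap2a, a border transcription factor, stood at 12.5 in KO1, 22.4 in KO2, 11.2 in WT1 and 7.54 in WT2, with KO above WT. Its WT mean was 9.39, so it reached the minimum mean through KO alone. Foxd3, a crest specifier that the epiblast also expresses, stood at 84.9 in KO1, 12.0 in KO2, 57.6 in WT1 and 71.6 in WT2, low in KO2 alone. Sox9, a reported link between miR-302 and the crest, stood at 12.5 in KO1, 40.1 in KO2, 11.9 in WT1 and 18.8 in WT2. Pax3, Pax7 and Zic1 had at most 4 reads in any library.

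Components of the Nodal pathway had a positive log2 fold change in 13 of 13 tested cases, against 48.9% of all tested genes. In 7 both KO libraries lay above both WT libraries and in 0 below, against 16.1% and 12.7% of all tested genes, and the median was 0.67. Nodal, its co-receptor gene Tdgf1, Lefty2 and Cer1 are also members of the epiblast, streak, mesoderm or endoderm lists above. The ligand itself did not follow genotype: Nodal stood at 249 in KO1, 87.3 in KO2, 160.2 in WT1 and 119 in WT2. Of its inhibitors, Lefty2 (ENSMUSG00000066652.5, chromosome 1, 180893108 to 180899103, plus strand) stood at 497 in KO1, 1159 in KO2, 493 in WT1 and 222 in WT2, where KO1 and WT1 were nearly equal, and Lefty1 (ENSMUSG00000038793.8, chromosome 1, 180935022 to 180938400, plus strand) at 186 in KO1, 303 in KO2, 46.4 in WT1 and 280.2 in WT2, where WT2 was close to KO2 and WT1 was the low one. Cer1, a secreted antagonist of the anterior endoderm, stood at 168 in KO1, 2393 in KO2, 172 in WT1 and 714 in WT2, high in KO2 and next in WT2.

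Effectors and receptors of the pathway were mixed. Smad4, the shared effector, stood at 2645 in KO1, 2469 in KO2, 1689 in WT1 and 1417 in WT2. Smad2, which Nodal receptors phosphorylate, stood at 873 in KO1, 797 in KO2, 571 in WT1 and 573 in WT2. Furin, the protease that matures Nodal, stood at 470.4 in KO1, 412 in KO2, 288 in WT1 and 168 in WT2, and the type II receptor gene Acvr2b at 683 in KO1, 566 in KO2, 556 in WT1 and 275 in WT2. The related receptor gene Acvr2a stood at 163 in KO1, 159 in KO2, 149 in WT1 and 121 in WT2. In all 5 both KO libraries lay above both WT libraries, and the KO values were within 1.5-fold of each other. Other effectors overlapped. Smad3, the close relative of Smad2, stood at 32.0 in KO1, 62.5 in KO2, 56.2 in WT1 and 26.4 in WT2. Foxh1, the DNA-binding partner of the Smads, stood at 584 in KO1, 739 in KO2, 659.9 in WT1 and 369 in WT2. In both WT2 was lowest and WT1 lay between KO1 and KO2. Unadjusted limma p-values were 0.0223 for Furin, 0.0336 for Smad4 and 0.0802 for Smad2, and none was called. The list median stayed between 0.54 and 0.67 with any 1 library left out and was 0.50 after a trend over transcript length and GC content was removed from each library.

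**Figure D5:**
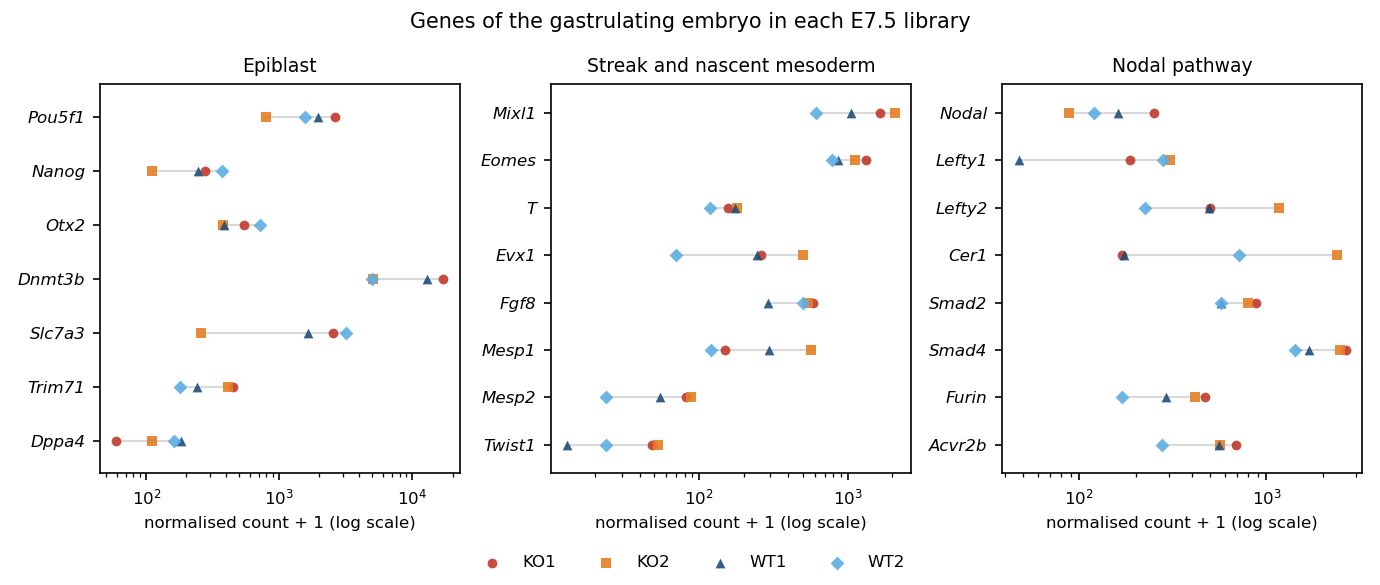
Normalised count + 1 (log scale) of epiblast, streak and mesoderm, and Nodal pathway genes, 1 symbol for each library. KO1 and KO2 lie far apart for Pou5f1, Slc7a3, Mesp1 and Cer1, while Mixl1, Eomes, Smad2, Smad4 and Furin have the KO pair above the WT pair.

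The 3′UTRs of genes described above were searched for matches to the seed, since these are the letters through which miR-302 would pair. The match to bases 2 to 8 followed by A is AGCACTTA (an 8mer); AGCACTT and GCACTTA are 7mers contained in it, and only the strand of the transcript was searched. Of all annotated 3′UTRs 2.96% hold the 8mer and 17.7% a 7mer or 8mer. Of 38 genes searched, the crest-shared genes named by rule, the reported targets, Mixl1 and Trim71, 37 have a 3′UTR, 20 hold a 7mer or 8mer and 9 an 8mer. The 38 include 17 reported targets, which may have been picked for such sites, so these counts cannot be set against all 3′UTRs. Of the 8mer genes, Cdkn1a, Lats2, Rbl2, Lefty1, Lefty2, Tgfbr2 and Smarcc2 are reported targets. The sites printed here are a selection. It leaves out, among others, those of Rbl2 and Tmem176a, which stood lower in KO, and of Lats2, Tgfbr2 and Smarcc2. The selected sites follow, with 10 bases on each side, from GENCODE M21 transcripts (GRCm38), with the match in capitals.
Lefty1, chr1:180938203-180938230, plus strand: ctgtatgcgaAGCACTTAcatgtataga
Lefty2, chr1:180897907-180897934, plus strand: acccagtttaAGCACTTAcatgggtaaa
Sdc1, chr12:8792194-8792221, plus strand: gaccagccatAGCACTTAcccatagaga
Cdkn1a, chr17:29100490-29100517, plus strand: tgggtgtcaaAGCACTTAgtgggtctga
Akt1, chr12:112653986-112654012, minus strand: cccttctcctAGCACTTgtccttttag
Mixl1, chr1:180693402-180693428, minus strand: catttttcttAGCACTTgttattatgt
Trim71, chr9:114510072-114510098, minus strand: attggtgctaAGCACTTtggagagtgt
The first 4 are 8mers and the last 3 are 7mers. A match is a description and not a proven site.

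Genes with these letters did not all behave alike. Sdc1, Akt1, Mixl1 and Trim71 had both KO libraries above both WT libraries, as did Lefty2, while Lefty1 overlapped (values above). Tmem176a, which stood lower in KO, also holds a 7mer. Cdkn1a, the p21 inhibitor of the cell cycle and a reported target, stood at 68.2 in KO1, 120.2 in KO2, 149 in WT1 and 54.0 in WT2, with a log2 fold change of 0.01. Rbl2, a pocket protein of the cell cycle with an 8mer, stood at 27.8 in KO1, 23.2 in KO2, 41.5 in WT1 and 30.2 in WT2. Lats2, a Hippo pathway kinase with an 8mer, stood at 84.9 in KO1, 83.3 in KO2, 108 in WT1 and 56.5 in WT2, where KO lay between WT1 and WT2. Of the 17 reported targets, 4 had KO above WT and 1 below, with a median of 0.10, against 16.1% and 12.7% of all tested genes: above were Akt1, Lefty2, Mbd2 and Ccnd1, and below was Rbl2. Mbd2, a methyl-DNA binding protein, stood at 444 in KO1, 736 in KO2, 311 in WT1 and 286 in WT2. Ccnd1, cyclin D1, stood at 355 in KO1, 330.1 in KO2, 283 in WT1 and 291 in WT2. Fgf15, a growth factor, stood at 231 in KO1, 125 in KO2, 185 in WT1 and 338 in WT2. The median was -0.18 without WT2, -0.01 without KO2, 0.15 without KO1 and 0.43 without WT1, so its sign rested on single libraries.

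Across the whole table, seed-matched genes were compared with the rest. Of 419 tested genes with an 8mer in the longest 3′UTR, both KO libraries lay above both WT libraries in 95 (22.7%) and below in 54 (12.9%). Of all 11715 tested genes with a 3′UTR the shares were 16.5% and 12.3%, and of 9288 with neither 7mer nor 8mer 15.9% and 12.3%. The median log2 fold change was 0.01 for 8mer genes and -0.00 for all that were searched, near 0 in both. The 8mer genes also have longer 3′UTRs, with a median of 2967 bases against 1174; the part of length in the share was not tested.

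Lists of cell state showed small differences. The 18 cell cycle genes had a median of -0.02; Mki67, the proliferation antigen, stood at 493 in KO1, 414 in KO2, 587 in WT1 and 740.0 in WT2. Top2a, a topoisomerase of dividing cells, stood at 2128 in KO1, 2140 in KO2, 2494 in WT1 and 3344 in WT2. These were the 2 of 18 with both KO libraries below both WT libraries, and 0 had them above. Of all tested genes 12.7% lay below and 16.1% above. The 14 tested p53 targets had a median of -0.00 (-0.48 without WT2 to 0.11 without KO1), with Trp53inp1 at 66.8 in KO1, 40.1 in KO2, 108 in WT1 and 112 in WT2. Genes of glycolysis and hypoxia stood lower in KO in 11 of 14 tested cases, with a median of -0.25, and 5 had both KO libraries below both WT libraries, against 12.7% of all tested genes. The median ran from -0.11 without WT1 to -0.46 without WT2. Bnip3, a mitophagy receptor induced by low oxygen, stood at 2139 in KO1, 1651 in KO2, 3350 in WT1 and 2846 in WT2. Pgk1, a glycolytic kinase, stood at 7384 in KO1, 5962 in KO2, 8512 in WT1 and 8321 in WT2. Ankrd37 stood at 66.8 in KO1, 71.3 in KO2, 92.1 in WT1 and 112 in WT2. Slc2a1, the glucose transporter, stood at 2803 in KO1, 2094 in KO2, 4718 in WT1 and 2137 in WT2. Ndrg1 stood at 104 in KO1, 270.0 in KO2, 514 in WT1 and 188 in WT2; WT1 was highest for both, as it was for 10 of the 14. Egr1, an immediate early gene that handling can raise, stood at 29.2 in KO1, 24.8 in KO2, 14.8 in WT1 and 6.28 in WT2, and its list had a median of 0.15 (0.02 without KO2 to 0.58 without WT1).

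Y-linked genes did not follow genotype. Ddx3y, on the Y chromosome, stood at 6.96 in KO1, 335 in KO2, 351 in WT1 and 5.03 in WT2. Eif2s3y stood at 6.96 in KO1, 338 in KO2, 352 in WT1 and 8.79 in WT2. Uty stood at 1.39 in KO1, 156 in KO2, 205 in WT1 and 3.77 in WT2. KO2 and WT1 were thus high and KO1 and WT2 low. Xist, made from the inactive X chromosome, stood at 296 in KO1, 8.81 in KO2, 412 in WT1 and 1055 in WT2, lowest in KO2 and with both KO libraries below both WT libraries. WT1 held both Xist and Y-linked transcripts, beside the largest share of decidual RNA.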

How the data were processed

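RNA from 4 whole embryo samples was turned into cDNA with SMART-Seq v4 and sequenced from Nextera XT libraries, per the labels' protocols. The submitters' processing notes name FastQC 0.11.5, STAR 2.7.0f and the build mm10. For the read counter and the normalising tool, nothing is given in the sources used here. The deposited signal covers 24421 genes and is normalised by the authors: each library's values are multiples of 1 step, and dividing by it left 100% of values within 0.01 of a whole number, taken as reads. The authors' deposited table of genes higher in KO, with mean levels, log2 fold changes and p-values per the file headers, was used only for comparison.

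Values were analysed as log2(value + 1) with limma 3.58.1 (trended empirical Bayes, two-sided, Benjamini-Hochberg at 0.05) in R 4.3.3, for genes with a mean of 10 or more. EdgeR 4.0.16 and DESeq2 1.42.0 were run on recovered reads. Alternatives were pseudocounts of 8 and 0.1, a minimum mean of 100 or none, rescaling by TMM, quantiles or crest-shared genes, a replicate block, each library left out, and removal of a trend over transcript length and GC content. The fit was tested on simulated data. Some items are not reported here. Gene lists (30), members and rules were chosen with earlier results of these data known. Named genes (121, of which 116 were tested) were the miR-302 locus, 3 per list by unadjusted p and 13 set genes. To these came the 8 most positive, the 8 most negative and 10 crest-shared genes per direction by unadjusted p. These added groups took only genes without overlap between KO and WT, with a higher group mean of 50 or more and no placeholder symbol. Other genes named in the text were picked after their values were seen. Longest 3′UTRs came from GENCODE M21 (GRCm38). Poisson intervals of reads are 95%, and cover counting error only.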

Additional observations from a re-analysis of the deposited data

How the results depend on the processing

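The limma count of 0 genes held under other pseudocounts, minimum means, scalings, an adjusted p threshold of 0.1, edgeR and the length and GC trend (561 genes below 0.05 before adjustment), and likewise the 0 among crest-shared genes. DESeq2 called 34 genes, 7 of them crest-shared, and the fit with a replicate block 47, 9 of them crest-shared. Leaving out 1 library gave 0 (without WT2) to 39 genes in all and 0 to 12 crest-shared genes, and the libraries of code number 239 alone gave 18 and 4. Libraries with the same replicate number did not deviate together (correlation -0.116), so the numbers pair nothing in these data. A block over the crossed pairs (KO1 with WT2, KO2 with WT1), added after seeing the data, gave 48 genes, 13 of them crest-shared. Over these alternatives 344 values of list and seed-match medians moved by less than the spread between replicates and 27 by more; the uterine epithelial median was -7.04 with a minimum mean of 100. Depth limits the precursor counts: at 4912827 to 9184436 reads, a count of 0 allows 3 reads, or 0.327 to 0.611 RPM.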

Other observations

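The authors' deposited table of genes higher in KO at E7.5 does not match the deposited values described here. Of 3365 listed genes that are in the E7.5 table, 3 have a mean within 1% of the mean of the 4 libraries, while for the deposited lists of E8.5 and E9.5 all genes do. In the authors' deposited table Mcpt2, a mast cell protease, has a mean of 515 and a log2 fold change of 24.7, and Irg1, an enzyme of activated macrophages, a mean of 158; here Mcpt2 is at 0 in all 4 libraries and Irg1 at no more than 2.40. Of the authors' deposited table, a set of 174 genes has 0 reads in all 4 libraries, and of the 3191 with reads 46.4% have a higher mean in KO. Among tested genes the share is 49.0% of 2452 listed genes and 46.9% of all. That table was used for nothing else.

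A pair of gene families was looked at after their values were seen. Of the Serpinb9 group, protease inhibitors of trophoblast and immune cells, 4 of 7 tested genes had both KO libraries above both WT libraries, against 16.1% of all tested genes. Of 5 tested class II antigen-presenting genes all had a negative log2 fold change and 3 had both KO libraries below both WT libraries, against 12.7% of all tested genes.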
